A study of Mus musculus with 18 samples.

Results

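Imprinted genes were examined across 6 H3K27me3 and H3K27ac ChIP-seq peak lists from unstimulated bone marrow-derived macrophages (BMDM). The 40 genes were taken by symbol, whatever their gene type, from the 55413 genes of the GENCODE vM21 annotation (mouse build mm10), and all 40 were found. Of these, 33 are protein-coding and 7 are noncoding. BMDM are macrophages grown from mouse marrow. They came from WT mice labelled C57BL6, from mdx mice labelled Dmdmdx-4Cv, which carry a mutation in the dystrophin gene, and from mdxTLR4-/- mice labelled Bl6/Bl10, which also lack the receptor TLR4. The mice were male, as the methods of the paper state. The H3K27me3 ChIP libraries numbered 2 per genotype, with labelled ages of 12 and 13 weeks in WT, 14 and 15 in mdx, and 16 and 17 in mdxTLR4-/-. The H3K27ac libraries numbered 2 in WT (19 and 20 weeks), 2 in mdx (21 and 22 weeks) and 1 in mdxTLR4-/- (23 weeks). Input libraries numbered 2 per genotype for H3K27me3 and 1 in all for H3K27ac, and are not analysed here. A shorter label, mTLR4, was read as mdxTLR4-/-. The ages on the labels step up by 1 week per sample, from 6 to 23 weeks over all 18, with H3K27me3 inputs labelled younger than the ChIP libraries of their genotype, and the paper describes WT and mdx mice as matched for age, so whether the labels give true ages is not known. The strain label of mdx names the dystrophin allele, and the methods of the paper place WT, mdx and the parental TLR4-/- mice on a shared C57BL/6J background. The label Bl6/Bl10 of mdxTLR4-/- names a further background, and if it holds, background cannot be told apart from loss of TLR4. Reads were not split by parental allele.

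An imprinted gene is expressed mainly from the chromosome inherited from one parent. The choice is set by DNA methylation laid down in the germ line, and within a cluster it is often spread by a long noncoding RNA such as Kcnq1ot1 or Airn. H3K27me3, placed by the Polycomb complex PRC2, is a mark of silent chromatin and is known on the silent allele of several of these genes, while H3K27ac marks active promoters and enhancers.

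The authors merged the replicates and called broad peaks with SICER2, so each mark and genotype has 1 list. Replicate error and a test between genotypes cannot be had from it. A peak carries a count of ChIP reads, not scaled for depth. Here and below, 3 values in a row stand in the order WT, mdx, mdxTLR4-/-. The H3K27me3 lists held 28143, 41780 and 36488 peaks with 8331331, 10199918 and 7358418 reads in them. The H3K27ac lists held 15665, 12076 and 12493 peaks, with 274020, 191629 and 168487 reads. Library depth is unknown here. A gene without a peak is one where none passed the caller, since the smallest H3K27me3 peaks held 27, 17 and 16 reads and the smallest H3K27ac peaks held 5 reads in each list. In a bulk sample, a mark in fewer cells cannot be told apart from less of it per cell.

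The cell label was checked against marker genes. An H3K27ac peak lay within 5 kb of the start of 10 of 10 macrophage markers in WT and 9 in mdx BMDM, and 10 in mdxTLR4-/-, with 675, 438 and 430 reads summed over the list. Spi1, the macrophage lineage factor, held 108, 104 and 95 reads. Csf1r, the receptor for macrophage colony-stimulating factor, held 162 reads in WT and 103 in mdxTLR4-/- BMDM. In mdx BMDM its peak of 165 reads began 5003 bases from the outermost start and was missed by the 5 kb limit, and with any annotated transcript start all 10 markers had a peak in each list. Of the other cell types, 1 of 7 T and B cell markers (Cd79a, 11 reads), 1 of 6 neutrophil markers (Cebpe, 10 reads) and 1 of 6 muscle markers (Acta1, 6 reads) had a peak in WT, and none in the other genotypes. None of 5 erythroid and stem cell markers had a peak in any list. None of 6 fibroblast markers had one within 5 kb of the outermost start, but with any transcript start Col1a1 and Col1a2, the chains of type I collagen, had one in WT and mdxTLR4-/- BMDM and Col1a2 in mdx BMDM, with the largest peak inside each gene at 34 reads for Col1a1 (WT) and 22 for Col1a2 (mdxTLR4-/-). The part of other cell types in the H3K27ac of imprinted genes was not tested.

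Promoter sequences are shown for members that stand for the 3 states found below: those with H3K27ac at the start (Kcnq1ot1, Blcap and Ube3a), those fully within H3K27me3 (Phlda2 and Dio3), and one with neither mark (Snrpn). They run from 250 bases before to 50 bases after a RefSeq start (build GRCm38.p6), 5′ to 3′ on the strand of the gene, with each CG, the dinucleotide that can be methylated, in capitals. Where RefSeq gives several starts, the promoter nearest to the GENCODE start, the outermost one of the gene, is used. That of Snrpn lay 6 bases from this start. The largest distances were 30328 bases at Plagl1, 9959 at Mest, 5217 at Mirg and 4913 at Blcap. Kcnq1ot1 lies at chr7:143296498-143296797 on the minus strand, Blcap at chr2:157566312-157566611 (minus), Ube3a at chr7:59228500-59228799 (plus), Phlda2 at chr7:143502475-143502774 (minus), Dio3 at chr12:110278980-110279279 (plus) and Snrpn at chr7:60140176-60140475 (minus).
Kcnq1ot1: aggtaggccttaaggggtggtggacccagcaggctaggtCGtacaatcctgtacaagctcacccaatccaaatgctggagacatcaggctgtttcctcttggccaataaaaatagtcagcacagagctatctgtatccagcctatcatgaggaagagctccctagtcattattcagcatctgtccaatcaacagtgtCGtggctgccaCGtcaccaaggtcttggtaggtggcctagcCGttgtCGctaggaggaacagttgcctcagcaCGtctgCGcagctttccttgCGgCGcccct
Blcap: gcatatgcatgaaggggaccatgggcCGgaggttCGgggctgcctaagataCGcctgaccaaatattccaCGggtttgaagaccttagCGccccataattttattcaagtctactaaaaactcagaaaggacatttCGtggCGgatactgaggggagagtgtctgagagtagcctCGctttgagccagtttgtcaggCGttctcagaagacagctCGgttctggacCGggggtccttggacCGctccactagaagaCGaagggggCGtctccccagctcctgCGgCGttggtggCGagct
Ube3a: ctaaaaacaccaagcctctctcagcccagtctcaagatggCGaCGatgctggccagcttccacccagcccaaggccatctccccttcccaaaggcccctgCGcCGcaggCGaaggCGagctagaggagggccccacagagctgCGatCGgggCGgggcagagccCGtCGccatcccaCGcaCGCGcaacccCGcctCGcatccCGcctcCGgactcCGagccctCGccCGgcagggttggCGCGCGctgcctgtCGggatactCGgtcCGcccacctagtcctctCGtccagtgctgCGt
Phlda2: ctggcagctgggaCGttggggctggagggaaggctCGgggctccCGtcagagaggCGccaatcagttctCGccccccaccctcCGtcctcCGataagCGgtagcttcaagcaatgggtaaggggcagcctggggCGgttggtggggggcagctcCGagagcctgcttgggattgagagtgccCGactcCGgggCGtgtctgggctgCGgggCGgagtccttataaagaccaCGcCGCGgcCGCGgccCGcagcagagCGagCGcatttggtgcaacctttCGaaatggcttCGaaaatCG
Dio3: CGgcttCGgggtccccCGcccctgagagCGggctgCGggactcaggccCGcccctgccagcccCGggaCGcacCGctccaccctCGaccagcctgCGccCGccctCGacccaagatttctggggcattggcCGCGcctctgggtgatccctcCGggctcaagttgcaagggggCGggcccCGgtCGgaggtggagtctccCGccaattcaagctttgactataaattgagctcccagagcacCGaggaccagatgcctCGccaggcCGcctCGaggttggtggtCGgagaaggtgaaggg
Snrpn: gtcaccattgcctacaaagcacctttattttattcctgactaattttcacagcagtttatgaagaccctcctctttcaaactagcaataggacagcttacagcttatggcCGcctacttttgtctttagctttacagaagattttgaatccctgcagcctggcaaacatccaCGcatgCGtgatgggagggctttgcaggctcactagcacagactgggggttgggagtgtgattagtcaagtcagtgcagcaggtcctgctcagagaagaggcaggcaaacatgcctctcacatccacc
A promoter was taken from the RefSeq table for 35 of the 40 members. They had a median of 13 CG per 300 bases (range 0 to 45), against 7 for all 32851 promoters in the table. Members with H3K27me3 over the promoter in every list numbered 18 and had a median of 14.5 CG. The 3 with H3K27ac there had 9 (Kcnq1ot1), 17 (Blcap) and 29 (Ube3a). The 9 with neither mark had a median of 10, and Snrpn had 3 at its outermost start. The CG at any inner start of Snrpn were not counted. How many of all promoters lay under each mark was not counted, so these counts of members have no background beside them. Promoters rich in CG were found under either mark: Phlda2, with 26 CG, lay in H3K27me3, and Ube3a, with 29, under H3K27ac. The letters TGCCGC on either strand, the core recognised by the imprint-keeping factor ZFP57 when methylated, were found in 6 of the 35 promoters (17.1%; Nnat, Zim1, Plagl1, Grb10, Meg3 and Slc22a2) and in 11.6% of all promoters. This is a match of letters and not a binding site. H19, Peg10, Rtl1, Peg13 and Impact had no entry.

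Imprinted genes were often covered by H3K27me3, but unevenly: some loci were filled by it, others were bare. Coverage is the percentage of a gene window that lies under peaks, the window being the gene body with 5 kb added before its start and 1 kb after its end. At least 50% of the window was covered for 10 of 40 members in WT (25%), 12 in mdx (30%) and 10 in mdxTLR4-/- (25%). Over all 55413 genes the shares were 14.4%, 14.2% and 12.5%. Among the 33 protein-coding members the counts were 8, 10 and 8, where all protein-coding genes gave 16.6%, 16.3% and 14.9%. Some H3K27me3 touched the window of 25, 29 and 27 members (62.5%, 72.5% and 67.5%), against 27.9%, 30.7% and 28.4% of all genes. The median coverage of members was 17.7%, 24.2% and 13.2%, against 0% for all genes in each list. Members of 1 cluster share peaks, so these counts are not of independent genes.

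**Figure D1:**
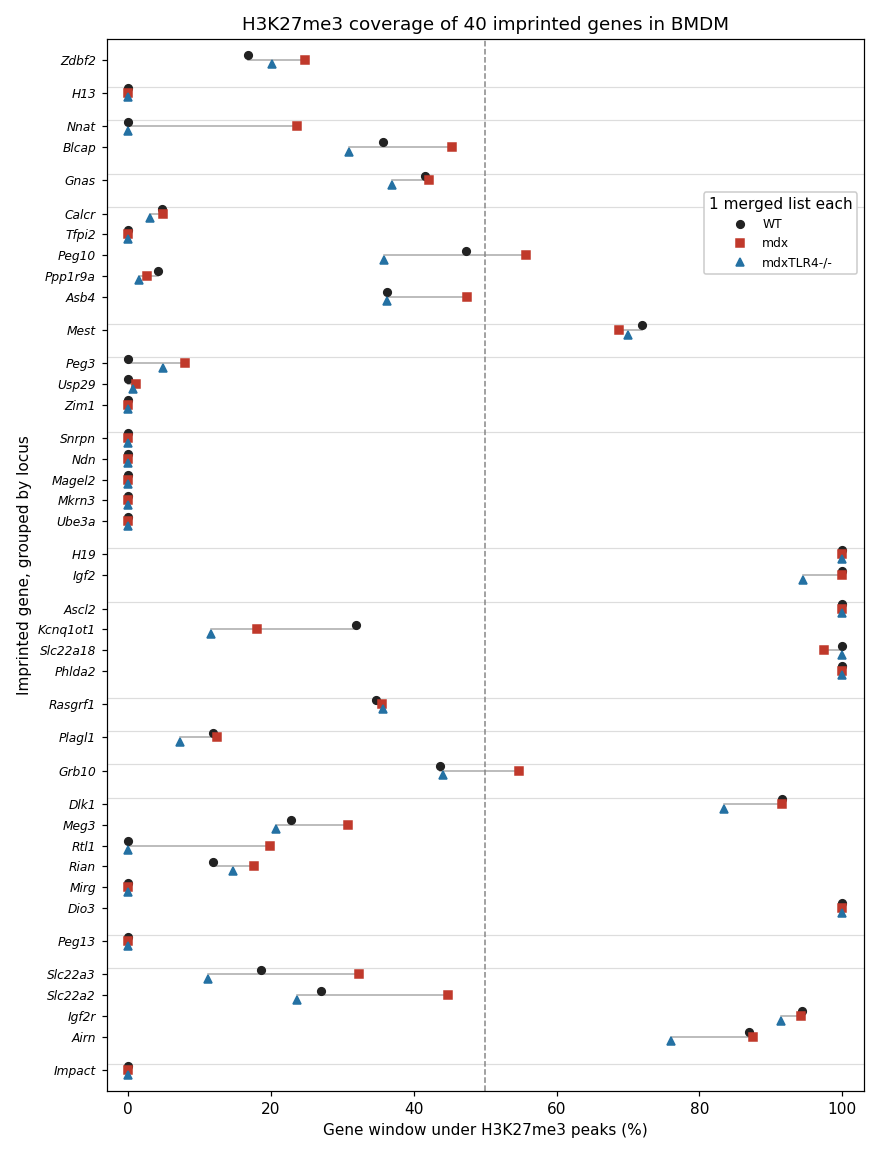
Percentage of the gene window under H3K27me3 peaks (x axis) for the 40 imprinted genes (y axis, grouped by locus, with grey rules between loci) in WT (circles), mdx (squares) and mdxTLR4-/- BMDM (triangles), each point from 1 merged peak list. The dashed line stands at 50%, and 10 genes lie to its right in every list while 11 lie at 0 in every list.

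The 10 members covered over at least 50% in every list were Mest, H19, Igf2, Ascl2, Slc22a18, Phlda2, Dlk1, Dio3, Igf2r and Airn. H19, Ascl2, Phlda2 and Dio3 were covered in full (100%) in all 3 lists. Peg10 and Grb10 joined them in mdx BMDM only, at 55.7% and 54.7%. A further 17 members held some H3K27me3 but less than 50% in every list. The remaining 11 had none in any list: H13, Tfpi2, Zim1, Snrpn, Ndn, Magel2, Mkrn3, Ube3a, Mirg, Peg13 and Impact.

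The H19-Igf2 locus on chromosome 7 was filled almost end to end. H19 is a noncoding RNA expressed from the maternal allele and Igf2, insulin-like growth factor 2, is a fetal growth factor expressed from the paternal allele. Over the 97.3 kb from one window to the other, 99.2% lay under H3K27me3 in WT and 98.4% in mdx BMDM, and 96.5% in mdxTLR4-/-, and no H3K27ac peak was found. H19 coverage was 100% in each list, and it sat in a single peak of 67.0 kb in WT and 16.2 kb in mdx BMDM, and 70.6 kb in mdxTLR4-/-. Igf2 coverage was 100%, 100% and 94.5%, in single peaks of 67.8, 43.6 and 26.4 kb. Both genes thus lay in broad domains in each genotype, while the caller cut the domains at different places. Within the 135.6 kb stretch joined by the peaks of all 3 lists, the peaks held 50.4, 58.8 and 50.3 reads per kb of peak. The ratio of mdx to WT there was 1.17 before scaling and 0.954 after scaling to the reads in peaks of each list. That of mdxTLR4-/- to mdx was 0.855 and 1.19, so both directions turned with the scaling.

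The neighbouring Kcnq1ot1 locus carried H3K27me3 in long blocks on either side of a gap. Kcnq1ot1 is the paternally expressed noncoding RNA that starts inside Kcnq1 and runs antisense to it, and is known to silence its neighbours in cis. Over the 542 kb from Ascl2 to Phlda2, coverage was 71.4%, 67.1% and 64.8%, in 18, 26 and 21 peaks. Ascl2, a trophoblast transcription factor, was covered in full in each list, in peaks of 48.4, 30 and 30.8 kb. Slc22a18, an organic cation transporter, had 100%, 97.5% and 100%, and Phlda2, a brake on placental growth, 100% in each. In WT BMDM 1 peak of 103.4 kb held both Slc22a18 and Phlda2. In mdxTLR4-/- BMDM a peak of 97.2 kb did so. In mdx BMDM a peak of 35.2 kb held Phlda2 and all but the first bases of Slc22a18, whose start lay in the gap between it and a peak of 98 kb. Kcnq1ot1 itself, at chr7:143203458-143296549, was the member of this locus with the lowest coverage, at 32.0% in WT and 18.1% in mdx BMDM, and 11.7% in mdxTLR4-/-. Its coverage was lower by 10 percentage points or more in mdx than in WT, the only member for which this was so (1 of 40, or 2.5%, against 5.53% of all genes).

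The Igf2r locus on chromosome 17 also had a long domain, over the gene and its antisense RNA together. Igf2r, the receptor that clears IGF2, is expressed from the maternal allele in most mouse tissues, and Airn, the paternally expressed RNA that overlaps its start, is known to silence it and the neighbouring transporters Slc22a2 and Slc22a3 in some tissues. Igf2r coverage was 94.4% in WT and 94.2% in mdx BMDM, and 91.4% in mdxTLR4-/-. Airn coverage was 87.0%, 87.5% and 76.0%. The transporters were less covered: Slc22a3 had 18.6%, 32.3% and 11.2%, and Slc22a2 had 27.01%, 44.8% and 23.6%. Over the 443 kb of the locus coverage was 58.7%, 63.5% and 49.0%, in 19, 31 and 29 peaks, of which the longest were 86.6, 71 and 56.4 kb. The order Igf2r, Airn, Slc22a2, Slc22a3 held in each list.

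Within the Igf2r domain, a small H3K27ac peak lay in a gap of the H3K27me3 in WT and mdxTLR4-/- BMDM. In WT it was at chr17:12754201-12756000 with 21 reads, in an intron of both Igf2r and Airn, 13664 bases from the Igf2r start and 12890 from the Airn start, and it overlapped no exon. The H3K27me3 peak on its left, of 86.6 kb, ended 800 bases away and the one on its right, of 64.6 kb, began 2600 bases away. In mdxTLR4-/- BMDM the peak was at chr17:12754001-12756800 with 24 reads, between H3K27me3 peaks of 56.4 and 23 kb that were 1000 and 2400 bases away. In mdx BMDM a peak of 5 reads, the smallest the list holds, lay at chr17:12753601-12753800 and its 200 bases fell within an H3K27me3 peak. An H3K27ac peak in a gap of at most 10 kb between H3K27me3 peaks of at least 20 kb was rare: there were 9 among 15665 peaks in WT and 2 among 12076 in mdx BMDM, and 1 among 12493 in mdxTLR4-/-. The Igf2r peak was one of the 9 and the single one in mdxTLR4-/-, and it was not among those of mdx BMDM. The gap search was set up after this peak had been seen.

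The central 300 bases of the WT peak (chr17:12754951-12755250, plus strand, GRCm38.p6) are given with CG in capitals because it is the centre of the H3K27ac that lay in the gap inside the Igf2r domain, apart from the peak of 5 reads in mdx BMDM.
Igf2r intronic H3K27ac centre: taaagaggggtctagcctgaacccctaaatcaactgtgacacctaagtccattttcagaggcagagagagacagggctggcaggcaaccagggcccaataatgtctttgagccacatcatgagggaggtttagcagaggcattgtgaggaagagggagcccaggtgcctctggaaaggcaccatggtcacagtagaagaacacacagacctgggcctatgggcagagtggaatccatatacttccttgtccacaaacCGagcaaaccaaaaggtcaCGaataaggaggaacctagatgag
They held 2 CG. Neither GAGGAAGT, a form of the motif of the macrophage factor PU.1, nor TGANTCA, the AP-1 motif, was found in them on either strand. Among the central 300 bases of all 15665 H3K27ac peaks of WT BMDM, these letters were in 3.9% and 9.51%. Over the whole 1800 bases of the peak TGANTCA was found 2 times and GAGGAAGT 0 times.

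**Figure D2:**
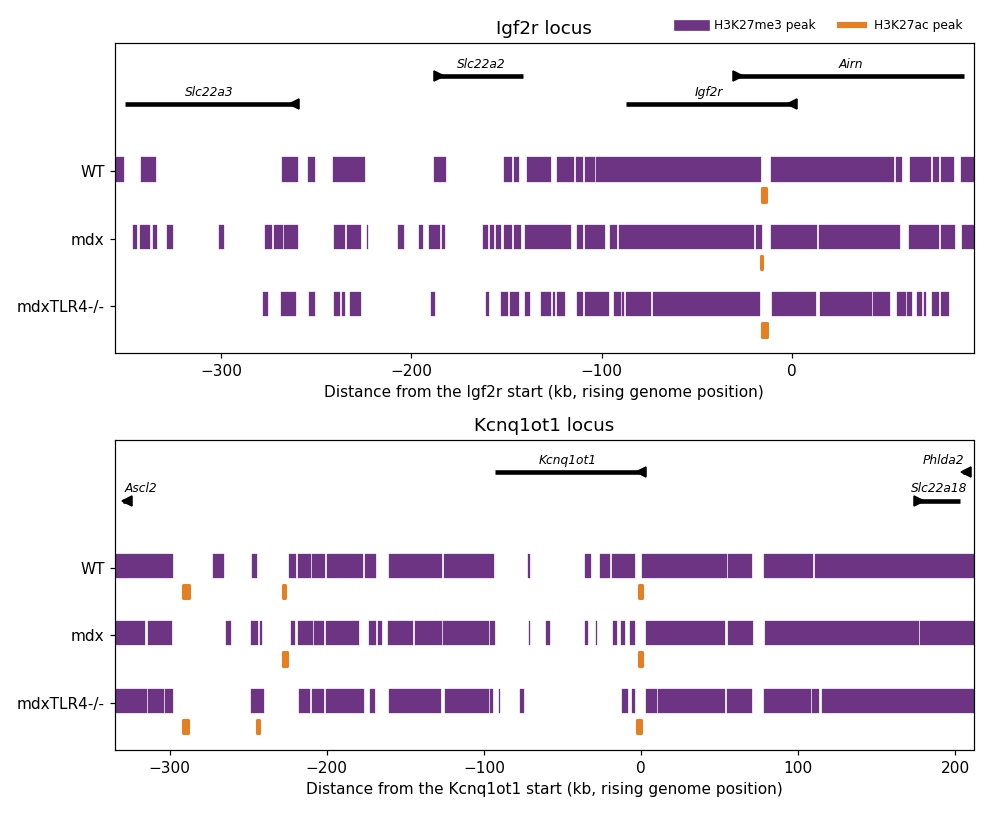
H3K27me3 peaks (purple) and H3K27ac peaks (orange, drawn with a minimum width) across the Igf2r locus and the Kcnq1ot1 locus in WT, mdx and mdxTLR4-/- BMDM; the x axis is the distance in kb from the Igf2r or the Kcnq1ot1 start, black bars are members, and the arrowhead sits at each start and points along transcription. H3K27ac lies in a gap of the H3K27me3 inside Igf2r in WT and mdxTLR4-/- BMDM and at the Kcnq1ot1 start in all 3 lists.

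The Dlk1-Dio3 locus on chromosome 12 was covered at its ends and thinly between. Dlk1, a Notch-like growth regulator, and Dio3, the deiodinase that inactivates thyroid hormone, lie at the ends and are expressed from the paternal allele. Between them lie the maternally expressed noncoding RNAs Meg3, Rian and Mirg, and Rtl1, a gene derived from a retrotransposon. Dlk1 coverage was 91.5% in WT and 91.5% in mdx BMDM, and 83.4% in mdxTLR4-/-, and Dio3 coverage was 100% in each. Meg3 had 22.9%, 30.8% and 20.7%, Rian had 11.9%, 17.6% and 14.7%, and Mirg had none. Rtl1 had no peak in WT and mdxTLR4-/- BMDM, and in mdx BMDM a peak of 3.4 kb with 72 reads covered 19.8% of its window. Over the 834 kb of the locus, coverage was 16.7%, 23.0% and 14.4%, in 20, 41 and 20 peaks, and no H3K27ac peak was found. The high ends and the low middle were therefore seen in every genotype, and the number of small peaks was highest in mdx BMDM.

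The domain at Dio3 was cut differently in each list, into a peak over the gene of 20, 13 and 37 kb. The read density of that peak, 53.0, 74.3 and 38.4 reads per kb, is therefore over different stretches. Within the 41.6 kb joined by the peaks of all 3 lists, the peaks held 1495, 1562 and 1420 reads. These peaks added up to 38.8, 32 and 37 kb. The density per kb of peak was 38.5 reads in WT and 48.8 in mdx BMDM, and 38.4 in mdxTLR4-/-, so it too rests on different lengths. The ratio of mdx to WT in these densities was 1.27 before scaling and 1.03 after scaling to the reads in peaks of each list. That of mdxTLR4-/- to mdx was 0.786 and 1.09, so its direction turned with the scaling.

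The Peg10 locus on chromosome 6 had middling coverage at Peg10 and Asb4 and little at the other 3 members. Peg10, a retrotransposon-derived gene needed for the placenta, had 47.3% in WT and 55.7% in mdx BMDM, and 35.9% in mdxTLR4-/-. Asb4, which helps target proteins for ubiquitination, had 36.3%, 47.5% and 36.3%. Calcr, the calcitonin receptor, had 4.7%, 4.94% and 3.06%, from 1 small peak at its start. Ppp1r9a, a neuronal actin-binding protein, had 4.17%, 2.68% and 1.49%, and Tfpi2, a protease inhibitor, had none. Across the 1749 kb from Calcr to Asb4, only 5.81%, 7.02% and 4.53% lay under H3K27me3. The same stretch held 11, 6 and 6 H3K27ac peaks, none within 5 kb of the start of a member.

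The Snrpn locus and the Peg3 locus, both on chromosome 7, were bare of H3K27me3 or nearly so. Snrpn, a splicing protein gene in the region tied to Prader-Willi syndrome, Ndn, Magel2 and Mkrn3 are paternally expressed, and Ube3a, a ubiquitin ligase, is maternally expressed in neurons and from both alleles in most other cells. No window of the 5 genes held any H3K27me3, and over 3201 kb the single peak, in mdx BMDM, had 37 reads and covered 0.0312%. This holds for the span of these members: Peg12, one of the other imprinted genes, lies just past it and had 20.8%, 13.9% and 25.5%. The Snrpn locus did hold H3K27ac, in 16, 6 and 7 peaks with 165, 80 and 66 reads, of which the peak at the Ube3a start was the largest in each list, and the Peg3 locus held none. In the Peg3 locus, Zim1 had none. Peg3, a zinc finger gene, and Usp29, which starts beside it on the other strand, shared 1 peak over their starts, of 2.6 kb and 85 reads in mdx and 1.6 kb and 47 reads in mdxTLR4-/- BMDM, and no peak in WT. Peg3 coverage was 0% in WT and 7.99% in mdx BMDM, and 4.92% in mdxTLR4-/-, and that of Usp29, whose window is longer, 0%, 1.07% and 0.659%.

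In the Nnat-Blcap locus on chromosome 2 the marks lay side by side. Nnat, a small neuronal membrane protein expressed from the paternal allele, lies in an intron of Blcap, which makes a small protein and shows allele bias in brain. Blcap coverage was 35.7%, 45.3% and 31.0%. Nnat had none in WT and mdxTLR4-/- BMDM, and 23.7% in mdx BMDM, from a peak of 2 kb with 51 reads over its start. The peak over the outermost Blcap start was 17.4 kb in WT and 17.4 kb in mdx BMDM, and 14.2 kb in mdxTLR4-/-.

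The members outside these clusters ranged from bare to mostly covered. Mest, a hydrolase-like gene, had 72.0% in WT and 68.7% in mdx BMDM, and 70.0% in mdxTLR4-/-. Grb10, an adaptor that restrains growth factor signalling, had 43.7%, 54.7% and 44.0%. Gnas, the stimulatory G protein locus, had 41.6%, 42.2% and 36.9%. Rasgrf1, a Ras activator of neurons, was almost level at 34.7%, 35.5% and 35.7%. Zdbf2 had 16.8%, 24.8% and 20.2%, and Plagl1, a zinc finger growth regulator, had 11.9%, 12.4% and 7.26%. H13, a signal peptide peptidase, Peg13, a noncoding RNA inside Trappc9, and Impact, a regulator of translation, had none in any list. None of these single loci other than Grb10 crossed 50% between genotypes.

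Between genotypes, 11 members differed by 10 percentage points or more in some comparison, and Airn was the only one of them with at least 50% in every list. Coverage near 100% can show little difference, and 4 members stood at 100% throughout while the lengths of their peaks differed. Coverage was higher by 10 percentage points or more in mdx than in WT for 6 members (15%): Nnat, Asb4, Grb10, Rtl1, Slc22a3 and Slc22a2. Of all genes 5.82% were. The largest of these differences were 23.7 points at Nnat, 19.8 at Rtl1 and 17.8 at Slc22a2. Coverage was lower by as much in mdxTLR4-/- than in mdx for 10 members (25%, against 8.43% of all genes): Nnat, Blcap, Peg10, Asb4, Grb10, Meg3, Rtl1, Slc22a3, Slc22a2 and Airn. It was higher for 0 members, where 3.11% of all genes were. These shares have different bases, since members held a peak more often than genes at large. Among genes with H3K27me3 in at least 1 of the lists compared, 6 of 29 members (20.7%) were higher in mdx than in WT, against 18.0% of 17893 genes, and 10 of 29 (34.5%) were lower in mdxTLR4-/- than in mdx, against 26.0% of 17947. Counted in this way, the share higher in mdx was close to that of other genes with the mark. The opposite directions were rarer among members: 1 of 29 (3.45%) was lower in mdx than in WT, against 17.1%. In mdxTLR4-/- against mdx, 0 of 29 were higher, against 9.62%. These comparisons share the mdx list, so a member with a high value in mdx BMDM counts in both.

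Against WT, mdxTLR4-/- BMDM had lower coverage by 10 points or more at Peg10, Kcnq1ot1 and Airn (3 of 40, or 7.5%, against 8.19% of all genes) and higher coverage at 0 members (3.42% of all genes). The share of members lower in this comparison was thus close to the background with these peaks. Among genes with H3K27me3 in either list it was 3 of 27 (11.1%), against 26.4% of 17159, and with equal numbers of peaks, the 28143 densest of each list, 7 members were lower (17.5%, against 10.3% of all genes). Counting every size of difference, 18 members were higher (45%), 5 lower (12.5%) and 17 the same in mdx against WT, where 14.1% of all genes were higher and 13.6% lower. The mean difference was 3.18 points (0.145 over all genes). In mdxTLR4-/- against mdx, 3 were higher (7.5%) and 22 lower (55%), where 9.34% and 18.8% of all genes were, with a mean of -5.17 points (-1.60 over all genes). In mdxTLR4-/- against WT, 6 were higher (15%) and 15 lower (37.5%), where 9.32% and 17.4% of all genes were, with a mean of -1.99 points (-1.46 over all genes). Members that were the same made up 42.5%, 37.5% and 47.5% in these comparisons, against 72.4%, 71.8% and 73.3% of all genes.

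The differences with mdx BMDM were seen with some sets of peaks and not with others. With those 28143 densest peaks, 0 members were higher by 10 points in mdx than in WT and 4 (10%) were lower (Kcnq1ot1, Dlk1, Meg3 and Slc22a3), where 2.88% of all genes were higher and 8.3% lower. With peaks of at least 1.5 times the 1st percentile of read density, 0 were higher and 0 lower, where 4.73% and 3.97% of all genes were. With peaks of at least 2 kb, 5 members (12.5%) were higher, the 6 named above other than Grb10, where 5.03% of all genes were. The 10 members lower in mdxTLR4-/- than in mdx became 3 with equal numbers of peaks (7.5%, against 6.07% of all genes) and 2 under the density limit (5%, against 5.78%), both near the background, and stayed 10 with peaks of at least 2 kb (25%, against 8.15%). With the gene body alone in place of the window, 8 members (20%, against 4.34% of all genes) were higher in mdx than in WT: Rtl1 was no longer among them, and Blcap, Peg10 and Meg3 joined. In mdxTLR4-/- against mdx 9 were lower with the body alone (22.5%, against 6.32%), Rtl1 being lost here too, and against WT 2 were lower (5%, against 6.16%), Peg10 being lost. Under the density limit of 1.5 times, Kcnq1ot1 was no longer lower in mdxTLR4-/- than in WT and Slc22a2 was (3 members, 7.5%, against 5.23% of all genes). Peg10 and Airn remained lower in mdxTLR4-/- than in mdx BMDM under all 4 of these settings, and Kcnq1ot1 remained lower in mdx than in WT under all but the density limit. The differences at Nnat and Rtl1 came from single peaks of 51 and 72 reads, where the median H3K27me3 peak of the mdx list held 89.

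**Figure D3:**
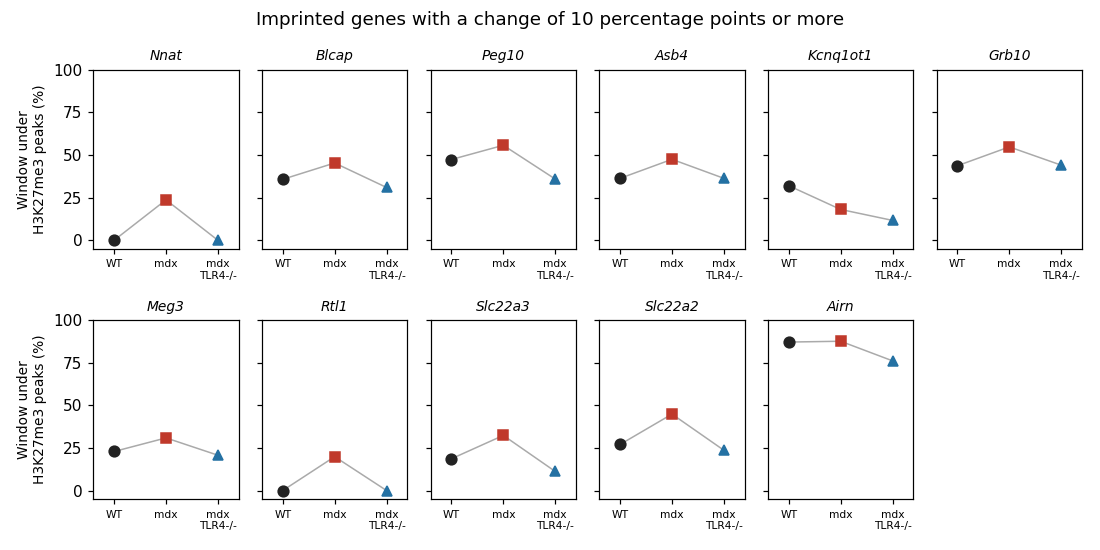
Percentage of the gene window under H3K27me3 peaks (y axis) in WT, mdx and mdxTLR4-/- BMDM (x axis) for the 11 imprinted genes with a difference of 10 percentage points or more in any comparison, each point from 1 merged list and joined by a line only to guide the eye. In 9 of the 11 panels mdx is the highest by a visible margin, Kcnq1ot1 is highest in WT, and Airn is lowest in mdxTLR4-/- BMDM.

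Read density at the members followed that of the lists. Among the 25 members with a peak in both lists, the median ratio of reads per kb in mdx to WT was 1.20, with 22 members above 1, and the median over all 14595 such genes was 1.20. The median of mdxTLR4-/- to mdx was 0.830 over 27 members (0.806 over all genes) and that of mdxTLR4-/- to WT was 0.972 over 25 (0.972). The medians of the members were thus close to those of all genes. Scaled to the reads in peaks of each list, the medians were 0.983, 1.15 and 1.10, so the direction turns with the scaling.

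Ratios at single loci moved with the peak boundaries. Ratios here are of reads per kb of peak, and the length under peaks differs between lists. Counted over the peaks that touch its window, Kcnq1ot1 had a ratio of 0.708 in mdxTLR4-/- to WT, from peaks adding up to 112.8 kb in WT and 16.4 kb in mdxTLR4-/-. Counted over all peaks within the 180.4 kb stretch joined by the lists, it had 1.06 (exact 95% Clopper-Pearson interval 1.01 to 1.11, counting error alone). Those peaks held 3587 reads over 112.8 kb in WT and 2998 over 89 kb in mdxTLR4-/-. Before scaling, the reads in peaks of the stretch were thus fewer in mdxTLR4-/-. Igf2 went from 1.28 to 0.999 (0.965 to 1.03) and Slc22a3 from 1.49 to 1.08 (0.995 to 1.17) in the same comparison. The joined Igf2 stretch held 6790 reads in 134.8 kb of peaks in WT and 6328 in 125.8 kb in mdxTLR4-/-. That of Slc22a3 held 1406 reads in 56.6 kb and 1003 in 37.4 kb, so unscaled reads were fewer in mdxTLR4-/- at both. In mdx to WT, Ascl2 went from 1.46 to 1.24 (1.17 to 1.31) and Phlda2 from 0.994 to 1.18 (1.14 to 1.22). Peg10 had 1.48 (1.33 to 1.64) by either count, because both counts hold the same peaks. These had 584 reads in 21.6 kb in WT and 942 in 23.6 kb in mdx BMDM. After scaling the joined stretches to the reads in peaks, the ratios in mdx to WT were 1.01 at Ascl2, 0.961 at Phlda2 and 1.21 at Peg10, so that of Phlda2 turned, and those in mdxTLR4-/- to WT were 1.20 at Kcnq1ot1, 1.13 at Igf2 and 1.22 at Slc22a3. These loci were named after their values had been seen.

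H3K27ac was found at few of the 40 starts. A peak lay within 5 kb of the annotated start for 5 members in WT (12.5%), 5 in mdx (12.5%) and 4 in mdxTLR4-/- (10%), against 19.6%, 16.4% and 17.4% of all genes. For the 33 protein-coding members the count was 3 in each list (9.09%), where 32%, 27.4% and 29.4% of all protein-coding genes had a peak. The members were Blcap, Ube3a, Kcnq1ot1 and Impact in every list, and Peg13 in WT and mdx BMDM. Blcap and Ube3a held the most reads. Blcap had 49 reads in WT and 47 in mdx BMDM, and 49 in mdxTLR4-/-, and Ube3a had 39, 42 and 25. Kcnq1ot1 had 14, 16 and 10 reads, and Impact had 17, 13 and 13. Peg13 had 16 and 12 reads, and no peak passed in mdxTLR4-/- BMDM, whose list comes from 1 library.

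**Figure D4:**
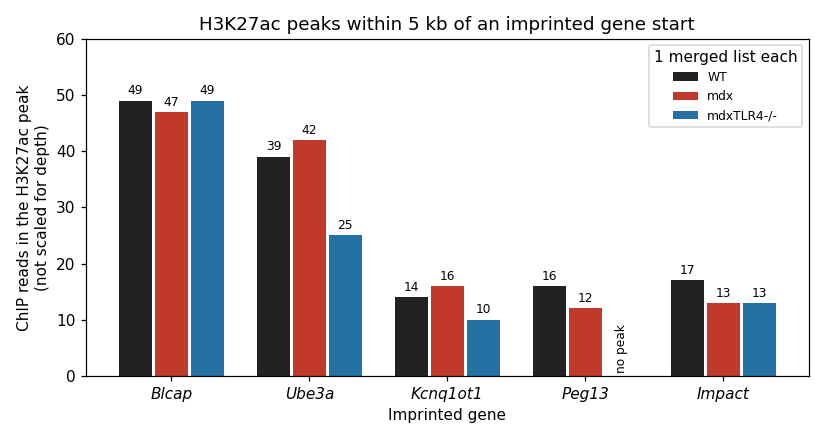
ChIP reads in the H3K27ac peaks within 5 kb of the start (y axis, unscaled counts) for the 5 imprinted genes that have one (x axis) in WT, mdx and mdxTLR4-/- BMDM; each bar is 1 merged list, so there is no error bar. Blcap and Ube3a hold the most reads, and Peg13 has no peak in mdxTLR4-/- BMDM.

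Most ratios of these reads between genotypes included 1 within counting error. Of 13 ratios between lists, only that of Ube3a in mdxTLR4-/- to mdx excluded 1 before scaling, at 0.595 (exact interval 0.348 to 0.9996), and after scaling to the reads in peaks it was 0.677 (0.395 to 1.14). After scaling, Blcap in mdxTLR4-/- to WT was the one ratio to exclude 1, at 1.63 (1.07 to 2.47). The Blcap peak lay at an inner transcript start and over the promoter printed above, 4074 bases inside the outermost start in WT BMDM. The Ube3a peak lay over the Ube3a start itself, at chr7:59226801-59230600 in WT. Impact had a second peak at an inner transcript start with 54, 51 and 30 reads. When any annotated transcript start was allowed, 8 members had a peak in each list (20%, against 20.9%, 17.7% and 18.8% of all genes), adding Nnat (through the Blcap peak), Gnas and Igf2r (through the intronic peak), with H13 in place of Peg13 in mdxTLR4-/- BMDM. The Gnas peaks were small, with 5 to 17 reads. The H13 peak held 5 reads, lay 4562 bases from the nearest H13 transcript start and overlapped the start of another gene, Gm26841.

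Both marks were near the start of the same 2 members in every list, Blcap and Kcnq1ot1 (5%, against 2.63%, 2.27% and 2.23% of all genes), and their peaks overlapped by 0 bases. At Kcnq1ot1 the H3K27ac peak covered the whole promoter printed above. In WT BMDM it lay at chr7:143295401-143297200, and the H3K27me3 peak of 53.6 kb on the upstream side began 200 bases past it. In mdx BMDM the gap was 2400 bases, to a peak of 50.8 kb, and in mdxTLR4-/- BMDM it was 2800 bases, to a peak of 6.8 kb. On the other side, within the gene, the gap was 2600 bases in WT and 2000 in mdx BMDM, and 1200 in mdxTLR4-/-, to peaks of 15, 3.6 and 2.4 kb. The gap was thus wider upstream and narrower within the gene in the latter genotypes than in WT. At Blcap the gap between the H3K27ac peak and the H3K27me3 peak was 1600 bases in WT and 1200 in mdx BMDM, and 1600 in mdxTLR4-/-. Whether the marks lie on the same allele was not tested.

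H3K27me3 was found over members of either parental expression. The 20 members assigned to the paternal allele had a median coverage of 5.96% in WT and 18.9% in mdx BMDM, and 6.09% in mdxTLR4-/-, and 5, 6 and 5 of them reached 50%. The 18 assigned to the maternal allele had medians of 20.8%, 31.6% and 17.7%, and 5, 6 and 5 reached it. The assignment is textbook knowledge, not from these samples and not specific to macrophages. It left out members whose expressed allele depends on the transcript. Ube3a was counted as maternal, as in neurons, although it is expressed from both alleles in most other cells.

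Other imprinted genes were also unevenly covered. Of 46 further names, 45 were found. At least 50% of the window was covered for 12, 12 and 11 of them (26.7%, 26.7% and 24.4%). Of all genes 14.4%, 14.2% and 12.5% were, and of all protein-coding genes 16.6%, 16.3% and 14.9%. Among those covered was Cdkn1c, a cell cycle inhibitor of the Kcnq1ot1 locus, at 100% in each list. An H3K27ac peak lay at the start of 15 in WT (33.3%) and 7 in mdx BMDM (15.6%), and 8 in mdxTLR4-/- (17.8%). Beside the shares of all genes (19.6%, 16.4% and 17.4%), the share was higher in WT and close to them in the other lists. Beside those of all protein-coding genes (32%, 27.4% and 29.4%), it was close in WT and lower in the other lists. The 45 genes were not split by gene type, so the reading depends on the base. The differences of at least 25 points were at Pon1 (35.2%, 38.9% and 8.16%), a serum esterase gene of the Peg10 locus, at Dlx5 (91.4%, 95.3% and 70.0%), a homeobox gene, and at Mas1 (82.5%, 86.1% and 58.3%), a receptor gene that overlaps Airn by 19.1 kb and so shares its peaks. In all 3, mdxTLR4-/- BMDM had the lowest coverage, and so it had at Osbpl5 (77.0%, 67.9% and 52.5%) and Ins2 (61.3%, 69.7% and 47.1%), which differed by 20 to 25 points. Cd81, a membrane protein of the Kcnq1ot1 locus and the remaining gene in that range, was highest there (17.0%, 27.4% and 40.6%). By 10 points or more, 1 of the 45 was higher (2.22%) and 1 lower in mdx than in WT, against 5.82% and 5.53% of all genes. In mdxTLR4-/- against mdx, 2 were higher (4.44%) and 5 lower (11.1%), where 3.11% and 8.43% of all genes were. In mdxTLR4-/- against WT, 1 was higher and 6 lower (13.3%), where 3.42% and 8.19% of all genes were. The share higher in mdx than in WT was thus below that of the 40 members (15%) and of all genes (5.82%). Both marks were near the start of Ampd3 in every list, of Tssc4 in WT and mdx, of Qpct in WT and of Cd81 in mdxTLR4-/- BMDM.

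Of 11 genes for factors that set or keep imprints, 2, 1 and 1 had at least 50% of the window covered (18.2%, 9.09% and 9.09%). With so few genes this is near the 14.4%, 14.2% and 12.5% of all genes. Zfp57, which binds methylated imprinting regions in early embryos, was covered at 94.8%, 93.5% and 97.2%. Zfp445, a zinc finger gene with the same role, had 13.9%, 15.3% and 15.3%, with an H3K27ac peak of 36, 12 and 14 reads at its start. Dppa3, which protects imprints in the zygote, had 50.6%, 20.2% and 1.94%, and Dnmt3l, a cofactor of germ line methylation, had 47.9%, 38.5% and 23.8%. Dppa3 and Dnmt3l were thus highest in WT and lowest in mdxTLR4-/- BMDM. Trim28 had 13.7% in mdx BMDM alone, and Dnmt3b had 0%, 6.32% and 0.341%. Dnmt1, Uhrf1, Dnmt3a, Ctcf and Smchd1 had none. Smchd1 had an H3K27ac peak of 12, 18 and 13 reads, and Ctcf had one of 12 and 21 reads in WT and mdx BMDM and none in mdxTLR4-/-.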

How the data were processed

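H3K27me3 and H3K27ac were measured by native ChIP-seq in 18 samples, inputs included. The authors mapped reads to mm10 with Bowtie2, merged replicates and called peaks with SICER2 (window 200 bp, gap 600 bp, FDR 0.01). The submitters' processing notes name Bowtie2 2.3.4, SICER 2.0, cutadapt 1.15 and CASAVA 1.8. The authors deposited each peak with its count of ChIP reads, unscaled and without subtraction of input. Removal of duplicate reads is not given in the sources used here.

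Coverage of gene windows, reads per kb of the peaks touching them, and H3K27ac peaks within 5 kb of starts (overlap of at least 1 bp) were computed with Python 3.11.15, numpy 2.4.6 and scipy 1.17.1, and figures with matplotlib 3.10.9, for all 55413 GENCODE vM21 genes. No peak ran past a chromosome end of the reference (0 of all peaks). The coverage step was tested on 1000 simulated windows and recovered 100% of them. With 1 merged list per genotype no test was made; intervals are exact Clopper-Pearson intervals of counts and cover counting error only. The members, lists and comparisons were chosen with earlier results of these data known. All members are accounted for, with values in every list for those that differ by at least 10 points, have H3K27ac at the start, or are highest or lowest in their cluster. Other imprinted genes are named where they differ by at least 25 points or have both marks, and imprint factors all. Loci singled out for read density, single marker genes, Cdkn1c, the values of Cd81, Osbpl5, Ins2 and Peg12, the shares among genes with H3K27me3, the gap search, the joined stretches, the shares of all genes under alternatives and the sequence motifs were added after values were seen. Alternatives were other sets of peaks, windows, limits, scalings and overlaps.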

Additional observations from a re-analysis of the deposited data

How the results depend on the processing

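Of 134 values recomputed under alternative settings, 98 kept their direction and stayed within the margin set for them, 28 moved and 8 reversed. Some of the 98 could not change. Equal numbers of peaks meant 28143 for H3K27me3, the whole WT list, and 12076 for H3K27ac, the whole mdx list. At Peg10 the joined stretch held the same peaks as the main count. With all lists reduced to their 28143 densest peaks, the members higher in mdx than in WT numbered 0 and those lower 4 (2.88% and 8.3% of all genes), those lower in mdxTLR4-/- than in mdx 3 (6.07%), and those lower in mdxTLR4-/- than in WT 7 (10.3%); coverage of the Dlk1-Dio3 locus in mdx was 13.1%. With peaks of at least 1.5 times the 1st percentile of density, mdx against WT gave 0 higher and 0 lower (4.73% and 3.97% of all genes), and mdxTLR4-/- against mdx 2 lower (5.78%). With a difference of 20 points the counts were 1 higher and 0 lower in mdx against WT (3.06% and 2.63% of all genes), 3 lower in mdxTLR4-/- against mdx (4.27%) and 1 lower in mdxTLR4-/- against WT (4.28%). With a limit of 20% coverage, 19, 21 and 19 members were covered in the order WT, mdx, mdxTLR4-/- (20.6%, 21.5% and 19.3% of all genes). Any transcript start, an alternative chosen after seeing the data, gave 8 members with H3K27ac in each list. Requiring the peaks of both marks to overlap left 0 members in each, and the share of all genes under this rule was not counted. The median density ratio reversed when scaled to reads in peaks (0.983 for mdx over WT, 1.15 for mdxTLR4-/- over mdx, 1.10 for mdxTLR4-/- over WT) and, relative to the 1st percentile, was 1.03 for mdx over WT and reversed to 1.06 and 1.06 for the others. Stretches joined by the peaks of all lists were also chosen after seeing the data. Per kb of the peaks within them, the ratio of Phlda2 in mdx to WT reversed to 1.18. Those of Kcnq1ot1 and Igf2 in mdxTLR4-/- to WT reversed to 1.06 and 0.999. The length under peaks differed between lists, and the Kcnq1ot1 stretch held fewer unscaled reads in mdxTLR4-/- (2998) than in WT (3587). With peaks of at least 2 kb, coverage was 0 in the Snrpn locus in mdx and in the Peg3 locus in mdxTLR4-/- BMDM. The cause of these moves was not tested.

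No paired analysis was possible because the replicates of each genotype had been pooled ahead of peak calling, and leaving out single libraries was impossible for that reason. Library depth, duplicate removal and parental allele are unknown here, H3K27ac peaks rest on few reads, and whether the labelled ages and the mixed background labelled for mdxTLR4-/- are true is not known.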
